A study of Mus musculus with 12 samples.

Results

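The CXC chemokine ligands described here are Cxcl1, Cxcl2, Cxcl3, Cxcl9, Cxcl10, Cxcl11, Cxcl12, Cxcl14 and Cxcl16, a list chosen by name, and 8 of these 9 genes had a row among the 31053 genes of the tables. Cxcl11 was not analysed here. The cells came from spontaneous mammary tumors of MMTV-PyMT mice, in which the mouse mammary tumor virus promoter drives the polyoma middle T oncogene in mammary epithelium, and no further treatment was given. The study compared mice wild-type for protease-activated receptor 2 (PyMT-PAR2WT) with mice carrying the G37I mutation of that receptor (PyMT-PAR2G37I), which impairs its activation by coagulation factor Xa. For each genotype, 3 samples of CD11c+ cells were taken from late-stage tumors and 3 samples of CD4+ and CD8+ T cells from mid-size tumors, 12 samples in all, by magnetic bead selection, and the cells were frozen and thawed before droplet-based sequencing of single cells.

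The data used here are 2 count matrices, 1 for each selection. A matrix pools its 6 samples of both genotypes, and nothing in a barcode tells from which sample its cell came, so the genotypes could not be compared from these files and each matrix was read as 1 sample with no test between groups. Selection and tumor stage also differ together between the matrices and cannot be told apart. The CD11c-selected matrix held 11639 cells with a median of 7943 unique molecular identifiers (UMIs), and the CD4/CD8-selected matrix 22806 cells with a median of 4361. Each barcode list runs through the alphabet 6 times, and these stretches, called barcode runs below, were used to show how values spread within a matrix. They are not linked to samples or genotypes and are not replicates. Between runs, 76 barcodes occurred more than once in the CD11c-selected matrix and 51 in the CD4/CD8-selected matrix.

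CXC chemokines are small secreted proteins that guide leukocytes along concentration gradients. Cxcl1, Cxcl2 and Cxcl3 bind Cxcr2 and draw neutrophils, and their transcription is known to be driven by NF-kappaB after inflammatory stimuli. Cxcl9 and Cxcl10 are interferon-induced ligands of Cxcr3 and draw effector T cells and natural killer cells. Cxcl12 binds Cxcr4 and the scavenging receptor Ackr3 and is a well-known product of stromal fibroblasts. Cxcl14 is a homeostatic chemokine of epithelia and stroma, and Cxcl16 is made as a membrane-bound protein whose receptor is Cxcr6.

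In GRCm38 (mm10), Cxcl1 (chr5:90891241-90893115), Cxcl2 (chr5:90903871-90905938) and Cxcl3 (chr5:90786103-90789600) lie close together on the plus strand of chromosome 5, and Cxcl9 (chr5:92321347-92328079) and Cxcl10 (chr5:92346638-92348889) are neighbours on its minus strand. Cxcl12 lies at chr6:117168535-117181367 on the plus strand, Cxcl14 at chr13:56288643-56296551 on the minus strand and Cxcl16 at chr11:70453983-70459984 on the minus strand. The 250 bases upstream of the RefSeq start are shown for 2 Cxcr2 ligands and 2 Cxcr3 ligands (RefSeq, GRCm38.p6), since Cxcl9 and the Cxcr2 ligands are compared cell by cell below. The capitals mark matches on either strand to GGG followed by any 5 bases and CC, the letters of a general NF-kappaB site, or to TTTC, any 2 bases and TTTC, the letters of an interferon-stimulated response element. The windows are chr5:90890995-90891244 (plus strand) for Cxcl1, chr5:90903649-90903898 (plus strand) for Cxcl2, chr5:92328080-92328329 (minus strand) for Cxcl9 and chr5:92348890-92349139 (minus strand) for Cxcl10.
Cxcl1: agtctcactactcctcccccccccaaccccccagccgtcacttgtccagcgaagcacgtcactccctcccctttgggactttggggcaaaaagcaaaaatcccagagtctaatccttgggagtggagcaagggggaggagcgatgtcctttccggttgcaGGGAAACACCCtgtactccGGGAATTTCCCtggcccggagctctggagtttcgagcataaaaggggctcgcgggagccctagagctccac
Cxcl2: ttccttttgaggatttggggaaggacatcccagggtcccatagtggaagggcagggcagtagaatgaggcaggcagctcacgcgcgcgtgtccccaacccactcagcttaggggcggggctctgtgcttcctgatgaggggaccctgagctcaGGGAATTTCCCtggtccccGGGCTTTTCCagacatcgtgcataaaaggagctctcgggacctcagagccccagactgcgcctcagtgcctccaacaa
Cxcl9: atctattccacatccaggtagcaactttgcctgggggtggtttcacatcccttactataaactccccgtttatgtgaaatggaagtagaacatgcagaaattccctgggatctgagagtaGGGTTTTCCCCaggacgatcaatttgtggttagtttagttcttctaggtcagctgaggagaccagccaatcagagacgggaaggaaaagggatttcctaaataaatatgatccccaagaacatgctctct
Cxcl10: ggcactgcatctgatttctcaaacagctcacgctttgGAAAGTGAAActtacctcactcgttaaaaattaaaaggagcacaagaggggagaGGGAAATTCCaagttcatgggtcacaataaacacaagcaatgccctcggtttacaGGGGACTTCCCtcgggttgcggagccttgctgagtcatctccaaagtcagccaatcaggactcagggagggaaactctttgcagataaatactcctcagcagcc
Counted back from the start, matches to the NF-kappaB letters on the gene's strand began at base -90 and -71 for Cxcl1, at -97 and -78 for Cxcl2, at -130 for Cxcl9 and at -159, -104 and -103 for Cxcl10, the last 2 overlapping. The run GGGAATTTCC stood in the windows of Cxcl1, Cxcl2 and Cxcl3. The NF-kappaB letters are loose and occurred in 45.8% of the 32851 promoter windows of the same length, whereas the interferon element letters occurred in 2.98%. The latter matched once in the Cxcl10 window, from base -213, and once in the Cxcl14 window, from base -172. These are matches of letters, and many of them overlap on the opposite strand. Of the 9 genes, 7 had an entry, and Cxcl11 and Cxcl16 were those without.

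Cells were assigned to a gate when at least 50% of its fixed marker genes had a UMI (2 of 7 for dendritic cells, DC) and no other gate was passed. In the CD11c-selected matrix this gave 6964 macrophages, 1347 DC, 160 neutrophils, 63 T cells, 279 tumor cells and 112 fibroblasts, while 2121 cells passed no gate and 550 passed several. In the CD4/CD8-selected matrix it gave 19002 T cells, 925 macrophages, 263 tumor cells and 78 fibroblasts, and the 17 DC and 3 neutrophils there were too few to describe. Genes that no gate used followed the names. In the CD11c-selected matrix the complement gene C1qb was at 3944 UMIs per 1000000 UMIs in macrophages and at 13.9 to 54.8 in the 5 other gates, the collagen gene Col6a2 was at 607 in fibroblasts, the keratin gene Krt7 at 441 in tumor cells and the T cell adhesion gene Cd2 at 263 in T cells. Itgax, which encodes CD11c, was at 239 on the same scale in macrophages, 154 in DC and 409 in neutrophils. It was at 3.56 in tumor cells and 6.96 in fibroblasts, so these cells carried little transcript of the selected antigen. Likewise, 83.3% of the CD4/CD8-selected cells lay in the T gate and the macrophages there were not the cells selected for.

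Levels below are sums of UMIs over the cells of a gate per 1000000 UMIs of those cells, abbreviated CPM, with exact 95% Poisson intervals that cover counting error only. A fold was called when it reached 2 and 1 of the gates held at least 20 CPM. In such sums, fewer expressing cells and less RNA per cell cannot be told apart. RNA that leaks into droplets may be present and was not measured directly. Barcodes with under 200 detected genes, which were left out, held Cxcl2 at 917 CPM, Cxcl16 at 459 CPM and Cxcl1 at 340 CPM in the CD11c-selected matrix. The part of leaked RNA in these values was not tested.

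Among the 6 described gates of the CD11c-selected matrix, 6 of the 8 measured ligands were highest in fibroblasts beyond the counting intervals. These were Cxcl1, Cxcl3, Cxcl9, Cxcl10, Cxcl12 and Cxcl14, though Cxcl3 and Cxcl10 not with 1 marker fewer per gate. Endothelial cells, given at the end, were too few to be ranked. Cxcl2 was highest in neutrophils and Cxcl16 in macrophages. Against macrophages, fibroblasts held 5 of the 8 ligands at 2-fold or more and 2 at least 2-fold below them, where 24.0% and 19.2% of all tested genes passed in these directions. The median fold of the ligands was 2.35, beside 0.985 for all tested genes. The same counts in the CD4/CD8-selected matrix were 5 higher and 2 lower of 8, beside 27.6% and 16.9% of genes. DC held none of 7 tested ligands at a called higher level than macrophages and 5 at a lower one, beside 8.21% and 13.2% of genes, with a median fold of 0.204 against 1.00 for all genes. Neutrophils held 1 of 7 higher and 4 lower than macrophages (24.2% and 16.5% of genes), T cells 0 higher and 6 lower of 7 (23.9% and 21.3%), and tumor cells 0 higher and 5 lower of 7 (25.3% and 17.4%). Between the non-immune gates, fibroblasts held 6 of 8 ligands higher than tumor cells and none lower, beside 17.8% and 21.0% of genes, with a median fold of 19.9 against 0.838. The T cells and tumor cells of the CD4/CD8-selected matrix likewise held none higher than macrophages, and 5 and 4 of 6 lower (25.7% and 23.5% of genes for T cells, 27.9% and 16.8% for tumor cells). Fibroblasts there held 5 of 7 higher than tumor cells and none lower (18.7% and 18.1%).

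**Figure D1:**
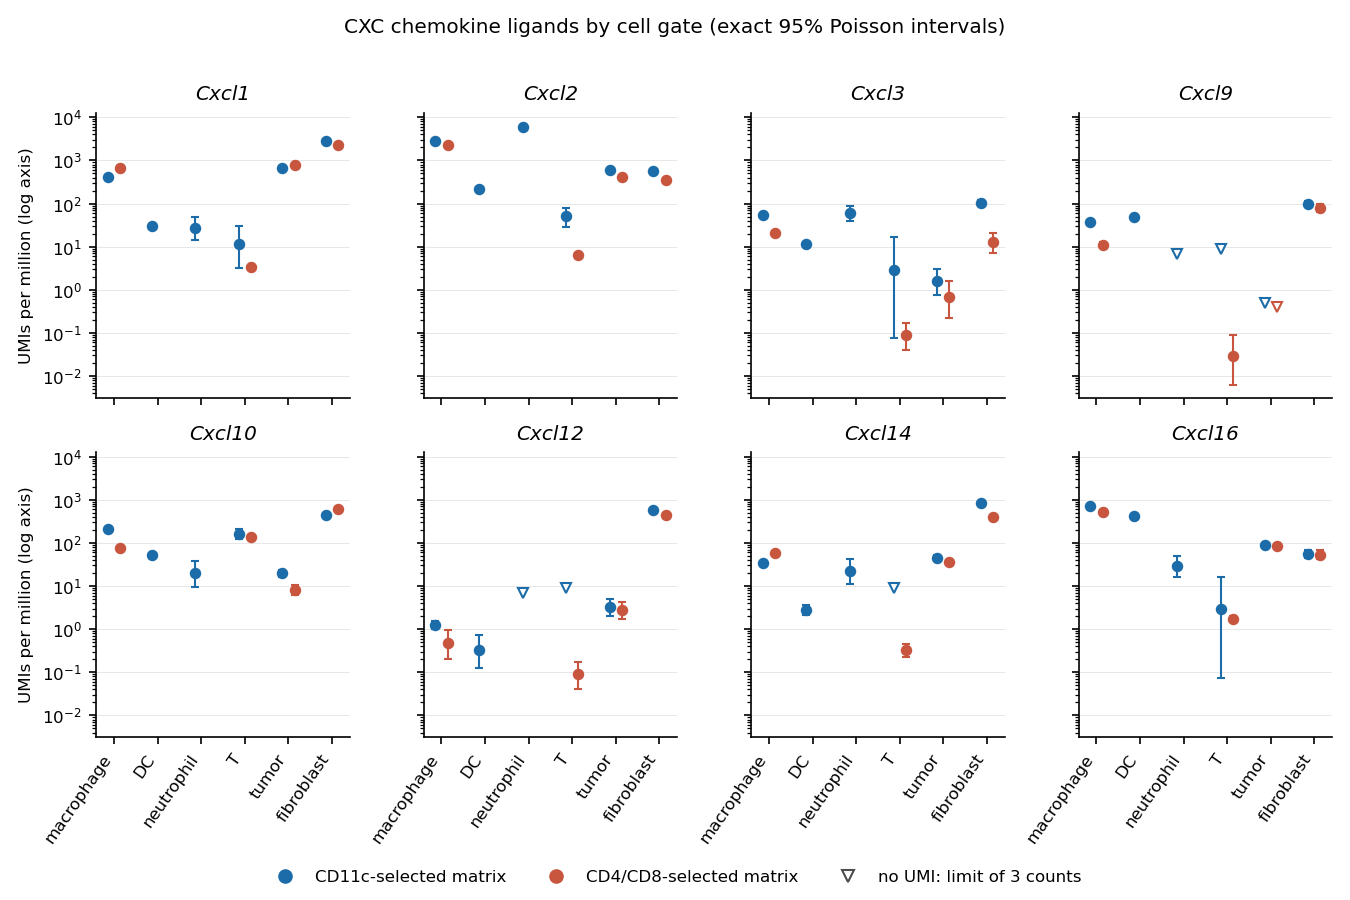
Level of each ligand in 6 cell gates, in UMIs per 1000000 UMIs on a log axis, with exact 95% Poisson intervals; blue points are the CD11c-selected matrix, red points the CD4/CD8-selected matrix, and open triangles mark gates with no UMI, drawn at the limit that 3 counts set. In the CD11c-selected matrix Cxcl12 falls from 591 CPM in fibroblasts to 3.24 CPM in tumor cells and less in macrophages and DC. It has no UMI in neutrophils and T cells, where the limits are 6.85 and 8.86 CPM. Cxcl2 spans every gate and peaks at 6059 CPM in neutrophils.

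Cxcl1, a potent neutrophil attractant, was at 2769 CPM in fibroblasts of the CD11c-selected matrix (95% interval 2691 to 2849), at 683 in tumor cells (663 to 704) and at 403 in macrophages (399 to 408). It was low in DC, at 29.6 CPM (27.1 to 32.2), in neutrophils, at 27.4 (14.2 to 47.9), and in T cells, at 11.8 (3.22 to 30.2). The intervals of DC and neutrophils overlapped, as did those of neutrophils and T cells, and the other neighbours in this order were apart. The fibroblast level was 6.86 times that of macrophages (6.66 to 7.08) and 4.05 times that of tumor cells, and that of macrophages 13.6 times that of DC.

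Across barcode runs with at least 10 cells of a gate, Cxcl1 ran from 1082 to 4404 CPM in fibroblasts (median 3018, 4 runs) and from 251 to 523 in macrophages (median 443, 6 runs), with no overlap. Fibroblasts stood above macrophages in 4 of 4 runs and DC below them in 6 of 6. Tumor cells stood above macrophages in 4 of 5 runs of the CD11c-selected matrix and in 6 of 6 of the CD4/CD8-selected matrix. In DC the level rested in part on 1 run, being 17.1 CPM without run 3. In the other matrix Cxcl1 was at 2334 CPM in fibroblasts, 773 in tumor cells, 660 in macrophages and 3.38 in T cells. The macrophage value there came largely from run 3, which held 480 of the 925 macrophages, and was 337 CPM without it.

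Cxcl2, the macrophage inflammatory protein that acts through the same receptor, had another order. Neutrophils of the CD11c-selected matrix held 6059 CPM (5831 to 6294) and macrophages 2892 (2880 to 2904), a ratio of 2.10 (2.02 to 2.18), and neutrophils lay above macrophages in 3 of 3 runs. Tumor cells at 613 CPM (594 to 633) and fibroblasts at 565 (530 to 601) had overlapping intervals. DC were at 222 CPM (215 to 229) and T cells at 50.2 (29.2 to 80.4). Thus Cxcl2 was 5.12 times higher in macrophages than in fibroblasts, the opposite direction to Cxcl1, and this held in 4 of 4 runs. Over runs Cxcl2 was at 3950, 5551 and 8531 CPM in neutrophils and went from 2311 to 3847 in macrophages (median 2909). The fibroblast value fell to 357 CPM without run 1 and the tumor cell value rose to 974 without run 3. Macrophages of the CD4/CD8-selected matrix held 2255 CPM, tumor cells 412, fibroblasts 350 and T cells 6.56, the same order.

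Cxcl3, the third of the clustered Cxcr2 ligands, was at 104 CPM in fibroblasts (89.2 to 120), 59.4 in neutrophils (38.8 to 87.0) and 55.2 in macrophages (53.5 to 56.9), and was at 11.3 in DC, 2.95 in T cells and 1.62 in tumor cells. Neutrophils and macrophages did not differ beyond counting error (ratio 1.08, 0.702 to 1.58), and the neutrophil value was 36.4 CPM without run 5. Unlike Cxcl1 and Cxcl2, it was nearly lacking in tumor cells, where fibroblasts exceeded it 64.1-fold. The place of fibroblasts at the top depended on the gate: with 1 marker fewer asked for, they held 40.5 CPM and macrophages 60.3. Macrophages at 20.7 CPM (33.0 without run 3) and fibroblasts at 12.6 (0 without run 5) in the CD4/CD8-selected matrix had overlapping intervals.

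**Figure D2:**
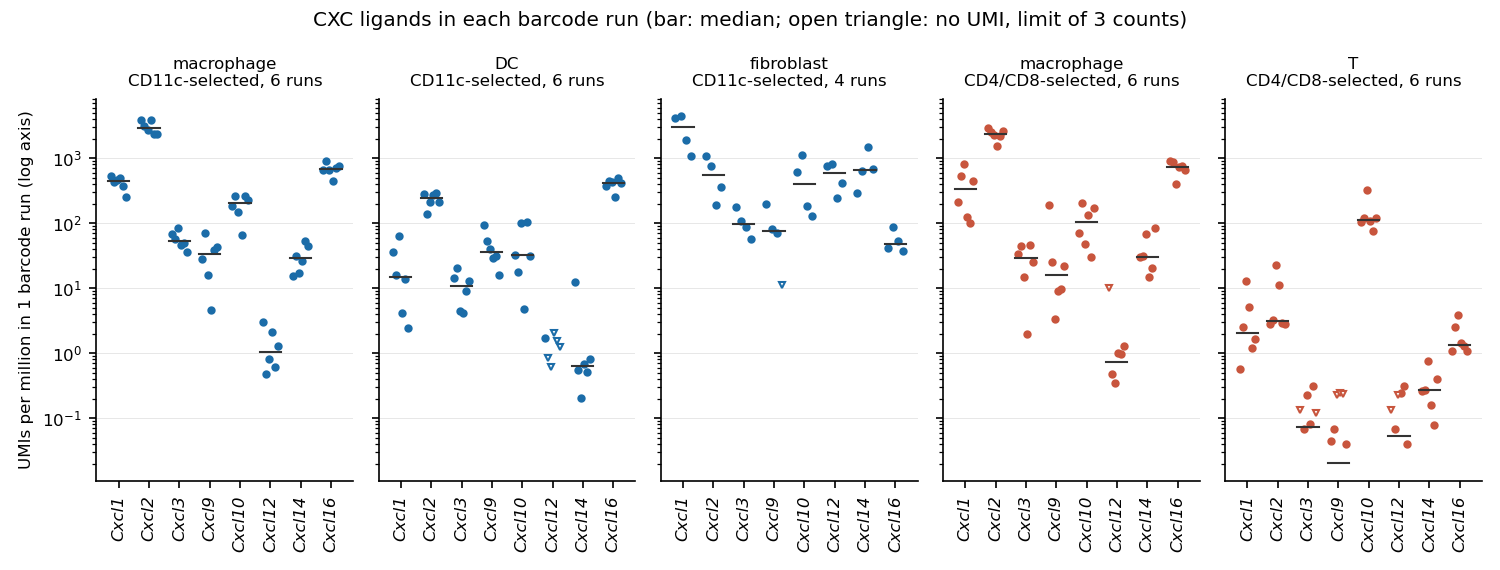
Level of each ligand in single barcode runs, in UMIs per 1000000 UMIs on a log axis, for the gates with several runs of at least 10 cells in the CD11c-selected and CD4/CD8-selected matrices; each point is a run and the bar is the median over runs. In macrophages of the CD11c-selected matrix Cxcl9 runs from 4.68 to 70.5 CPM while Cxcl16 stays between 444 and 896.

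Cxcl9 and Cxcl10, the Cxcr3 ligands, differed from the Cxcr2 ligands and from each other. Cxcl9 was at 98.1 CPM in fibroblasts (83.8 to 114), 48.2 in DC (45.0 to 51.5) and 37.4 in macrophages (36.0 to 38.8), with no UMI in the neutrophils, T cells and tumor cells of the CD11c-selected matrix. With 3 counts as the limit, these zeros allow up to 6.85 CPM in neutrophils, 8.86 in T cells and 0.486 in tumor cells. Cxcl9 was the only measured ligand with a DC level above that of macrophages, by a ratio of 1.29 (1.19 to 1.39), which was under the 2-fold call, and DC were higher in 3 runs and lower in 3. Its spread over runs was wide: 4.68 to 70.5 CPM in macrophages, a 15.1-fold range with a median of 33.1, and 16.1 to 94.7 in DC with a median of 35.6. In fibroblasts the runs spanned 0 to 196 CPM and the pooled value was 58.1 without run 1. The CD4/CD8-selected matrix held Cxcl9 at 80.4 CPM in fibroblasts and 11.0 in macrophages (27.8 without run 3), and at 0.0299 in T cells.

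Within DC, Cxcl9 lay in the conventional DC type that cross-presents antigen (cDC1, here DC with at least 2 UMIs of Xcr1 and Clec9a together). The 436 cDC1 held 89.3 CPM (82.5 to 96.5), whereas the 424 cDC2, marked by Cd209a, held 4.63 and the 206 migratory DC, marked by Ccr7 and Fscn1, 19.6. The ratio of cDC1 to cDC2 was 19.3 (13.1 to 29.5), and cDC1 were higher in 6 of 6 runs, with run values from 32.0 to 215 CPM (median 60.1) against 0.799 to 9.32 (median 3.51), which do not overlap. The size of the pooled ratio rested in part on few cells, as 4 cDC1 held 47.0% of their 643 Cxcl9 UMIs. After each cell was thinned to 2000 UMIs, 6.25% of cDC1 and 0.952% of cDC2 had a Cxcl9 UMI, with 4 shallower cells of each left out, and without thinning 12.8% and 2.59% did. The Cxcr2 ligands had the opposite order in these cells: in cDC2 Cxcl1 was 15.0 times, Cxcl2 9.11 times and Cxcl3 26.1 times the cDC1 level. Within runs cDC2 were higher in 6 of 6 for Cxcl1 and Cxcl2 and in 5 of 6 for Cxcl3. The size of these ratios rested on few cells, as 4 cDC2 held 65.8% of their Cxcl1, 32.6% of their Cxcl2 and 65.5% of their Cxcl3 UMIs. Cxcl1 in cDC2 ran from 3.36 to 164 CPM over runs. Of 6 ligands tested, 1 was called higher and 3 lower in cDC1, beside 8.10% and 11.6% of all genes.

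Cxcl10 was at 435 CPM in fibroblasts of the CD11c-selected matrix (404 to 467), 210 in macrophages (206 to 213), 162 in the 63 T cells (122 to 211), 53.7 in DC, 20.6 in neutrophils and 19.9 in tumor cells. The intervals of macrophages and T cells overlapped, and the T cell value was 108 CPM without run 2. With 1 marker fewer the order changed, to 507 CPM in T cells and 233 in fibroblasts. The low tumor cell value was set by 1 cell that held 111 of the 123 Cxcl10 UMIs, and was 2.10 CPM without run 1. Over runs Cxcl10 went from 127 to 1108 CPM in fibroblasts, from 66.7 to 265 in macrophages and from 4.82 to 103 in DC, and fibroblasts exceeded macrophages in 3 of 4 runs. The DC value was 35.9 CPM without run 3.

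T cells also held Cxcl10 UMIs. In the CD4/CD8-selected matrix the 19002 T cells held 136 CPM (134 to 138), beside 618 in fibroblasts, 77.7 in macrophages, 8.24 in tumor cells and 67.8 in the barcodes with under 200 genes (4 UMIs, 18.5 to 174). In order of runs, T cells were at 104, 118, 323, 109, 75.1 and 121 CPM, so run 3 stood apart and the level without it was 108. Macrophages were at 143 CPM without run 3, and T cells lay above them in 3 of 6 runs and below in 3, so the order of these gates was not stable. The fibroblast value was 393 CPM without run 3.

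Transcripts of macrophages were also found in T cells. C1qb was at 8.81 CPM in T cells and 4428 in macrophages of that matrix, Cxcl2 at 6.56 and 2255, and Cxcl1 at 3.38 and 660. Cxcl10 stood at 136 and 77.7, so its ratio of T cells to macrophages was unlike that of the 3 other genes. The macrophage transcripts were highest in the T cells of run 3, as Cxcl10 was: C1qb was at 43.1 CPM there (median over runs 4.32), Cxcl2 at 22.6 (median 3.08) and Cxcl1 at 12.8 (median 2.08). Without run 3, C1qb was at 3.60 CPM in T cells, Cxcl2 at 4.11, Cxcl1 at 1.94 and Cxcl10 at 108. The part of macrophage RNA in the Cxcl10 level of T cells was not tested. After thinning to 2000 UMIs, 7.75% of 17461 T cells (7.36% to 8.16%) had a Cxcl10 UMI, beside 1.17% with a Cxcl2 UMI and 0.796% with a Cxcl1 UMI, which serve as a measure of background. Thinning left out 1541 shallower T cells, and without it the shares were 12.1%, 2.56% and 1.68%. The median depths before thinning were 4446.5 UMIs in T cells and 16312 in macrophages. The molecules were unevenly held: 2290 T cells had the 13660 Cxcl10 UMIs, and the 1% of cells with most held 55.1% of them, while the deepest 1% of cells held 4.25% of all UMIs. CD8 T cells were at 139 CPM, CD4 T cells at 94.9 and regulatory T cells at 99.2.

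The T cells with at least 5 Cxcl10 UMIs, a contrast chosen after the values were seen, numbered 572, or 3.01% of the T gate, and 162 of them lay in run 3. They held the interferon-gamma gene Ifng at 390 CPM, beside 138 in the 16712 T cells with no Cxcl10 UMI. The interferon-regulated transcription factor gene Irf1 was at 152 CPM beside 97.6, whereas Cxcr3, the receptor, was at 79.4 beside 103. Within runs, Ifng and Irf1 were higher in the Cxcl10-rich T cells in 6 of 6 and Cxcr3 was lower in 5 of 6. The macrophage gene C1qb was at 9.95 CPM beside 8.48, higher in 3 runs and lower in 3, and at 3.95 beside 3.64 without run 3. Cxcl9 was at 0.269 CPM beside 0.0233.

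Cxcl12, the ligand of Cxcr4 and Ackr3, was highest in fibroblasts among the described gates of both matrices. It was at 591 CPM in fibroblasts of the CD11c-selected matrix (555 to 629), 3.24 in tumor cells, 1.23 in macrophages and 0.337 in DC, with no UMI in T cells or neutrophils. Fibroblasts exceeded macrophages 481-fold (387 to 602) and tumor cells 183-fold, and the run values of fibroblasts (242 to 798 CPM, median 590) lay far above those of macrophages (0.482 to 3.06, median 1.06). The fibroblast value of the CD4/CD8-selected matrix was 439 CPM beside 2.84 in tumor cells, 0.478 in macrophages and 0.0897 in T cells. After thinning, 44.2% of fibroblasts and 0.410% of macrophages had a Cxcl12 UMI (66.1% and 1.19% unthinned). The macrophages of the Lyve1, Cd209f and Cd163 set described below held 8.31 CPM, above the 1.18 of other macrophages but under the 20 CPM asked of a call, and were higher in 3 of 6 runs.

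Cxcl14 was also highest in fibroblasts, at 821 CPM (779 to 865), followed by tumor cells at 45.5, macrophages at 34.7, neutrophils at 22.8 and DC at 2.81, with no UMI in T cells. The fibroblast to macrophage ratio was 23.7 (22.2 to 25.3). Fibroblast runs were uneven, from 287 to 1500 CPM with a median of 650, and the value without run 3 was 496. The DC value fell to 0.488 CPM without run 1. Among CD4/CD8-selected cells Cxcl14 was at 400 CPM in fibroblasts (211 without run 5), 58.0 in macrophages (33.7 without run 3) and 35.5 in tumor cells. Cxcl14 thus shared the fibroblast peak of Cxcl12 but was also found in macrophages and in a few tumor cells. Of the 279 CD11c-selected tumor cells, 21 had a Cxcl14 UMI, and 3 cells held 66.5% of these UMIs. Tumor cells lay above macrophages in 3 of 5 runs there and in 1 of 6 of the other matrix.

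Cxcl16, the membrane-bound ligand of Cxcr6, was highest in macrophages and DC among the described gates. It was at 709 CPM in macrophages (703 to 715) and 413 in DC (404 to 422), and lower in tumor cells at 91.2, fibroblasts at 54.5, neutrophils at 29.7 (50.1 without run 6) and T cells at 2.95. Tumor cells and fibroblasts were apart, and the intervals of fibroblasts and neutrophils overlapped. Macrophages exceeded fibroblasts 13.0-fold and neutrophils 23.9-fold, and lay above DC 1.72-fold in the pooled cells and in 6 of 6 runs. Macrophage runs were at 444 to 896 CPM (median 678) and DC runs at 249 to 494 (median 422), so the ranges overlapped slightly although the direction was the same within each run. The CD4/CD8-selected matrix gave 523 CPM in macrophages (791 without run 3), 85.2 in tumor cells, 53.6 in fibroblasts and 1.73 in T cells.

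Among DC, Cxcl16 was highest in migratory DC, the mature cells that travel to lymph nodes. These held 892 CPM, beside 382 in cDC2 and 269 in cDC1. The ratio was 3.32 to cDC1 (3.11 to 3.55) and 2.33 to cDC2 (2.19 to 2.49), with migratory DC higher in 5 of 5 runs against each. Their runs, at 688 to 1012 CPM (median 962), lay above all runs of cDC1 (248 to 316, median 262) and cDC2 (175 to 551, median 375). After thinning, 73.0% of migratory DC had a Cxcl16 UMI, beside 38.7% of cDC1 and 47.4% of cDC2, whereas without thinning the shares were 92.2%, 85.1% and 87.5%. Migratory DC held 3 of 4 tested ligands higher than cDC1 and 1 lower (18.2% and 19.3% of genes). One of the 3, Cxcl10, was higher in 2 of 5 runs and lower in 3, and 2 migratory DC held 75.2% of its UMIs. Another, Cxcl2, was higher in 4 of 5 runs, but 2 migratory DC held 68.7% of its 278 UMIs and 1 cell held 162. Of the 5 ligands tested between migratory DC and cDC2, Cxcl16 was the 1 called higher and 3 were called lower, beside 14.4% and 17.6% of all genes.

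**Figure D3:**
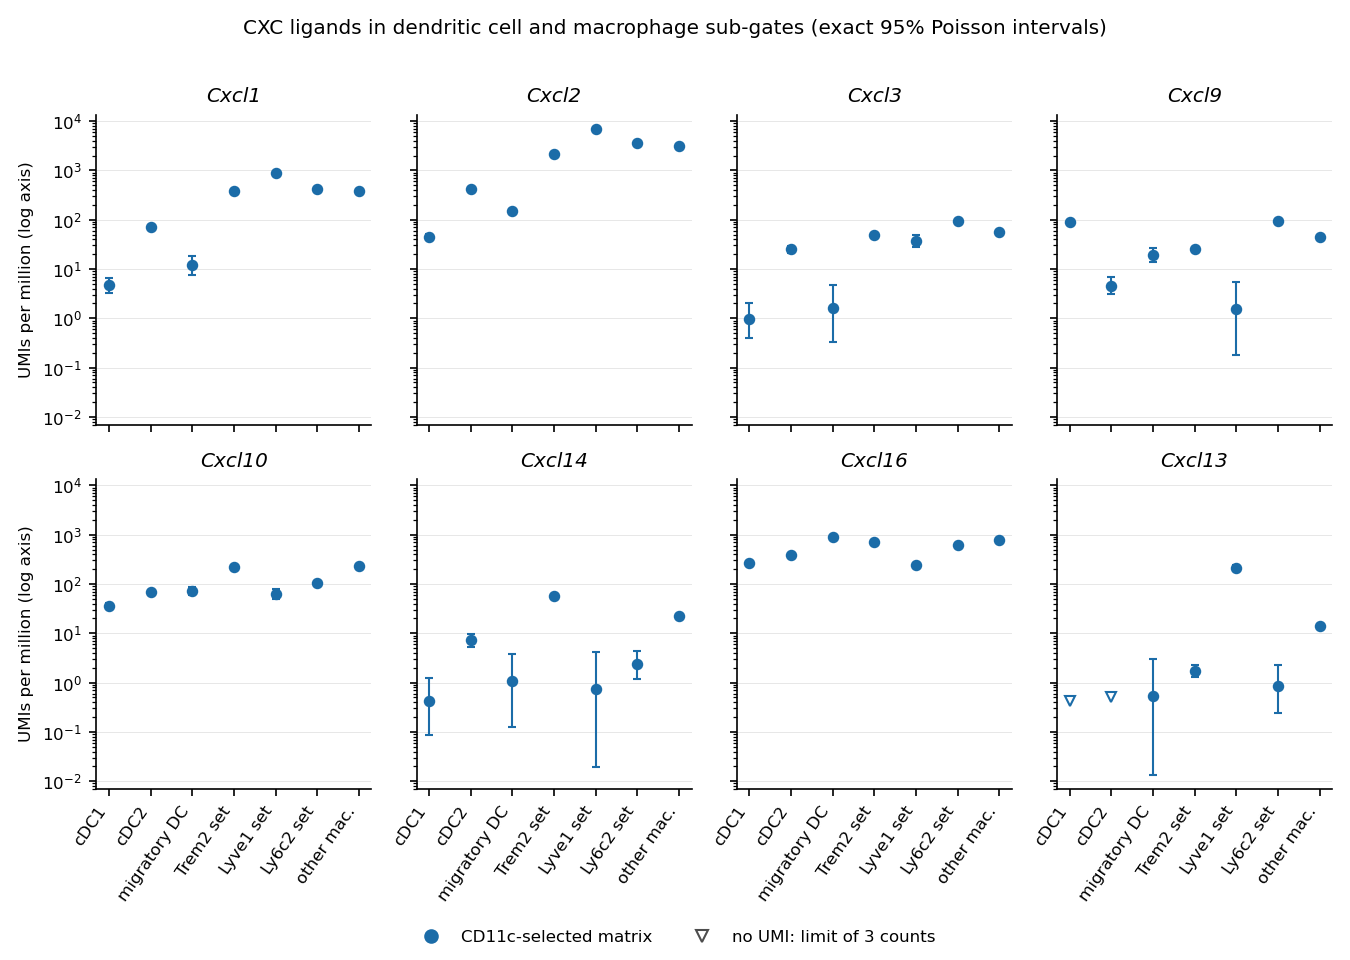
Level of each ligand, and of Cxcl13, in DC and macrophage subsets of the CD11c-selected matrix, in UMIs per 1000000 UMIs on a log axis, with exact 95% Poisson intervals. Cxcl9 is at 89.3 CPM in cDC1 and 93.7 CPM in the Ly6c2 macrophage set, Cxcl16 peaks in migratory DC at 892 CPM, and Cxcl2 peaks in the Lyve1 macrophage set at 6814 CPM.

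Macrophages were split by 3 marker sets, of which a cell had to hold 2 of 3 genes: Trem2, Gpnmb and Spp1, genes of lipid-handling macrophages (1992 cells); Lyve1, Cd209f and Cd163, genes of tissue-resident perivascular macrophages (140 cells); and Ly6c2, Plac8 and Ccr2, genes of recent monocyte descendants (466 cells). The other 4009 macrophages served as the comparison. Median depths were 12790 UMIs in the Trem2 set, 7567 in the Lyve1 set and 8378 in the Ly6c2 set, beside 6028 in the other macrophages. The part of depth in these comparisons was not tested. Cxcl2 was at 6814 CPM in the Lyve1 set, beside 3140 in other macrophages, and was higher in 6 of 6 runs, with run values of 4743 to 7718 CPM. Cxcl1 was at 875 CPM beside 385 but higher in only 4 of 6 runs. In the same set Cxcl9, Cxcl14 and Cxcl16 were lower than in other macrophages in 6 of 6 runs, at 1.51, 0.756 and 237 CPM beside 44.7, 22.1 and 796. Cxcl10 was at 63.5 CPM beside 229 and lower in 5 of 6. Of 7 ligands, 2 were called higher and 4 lower in the Lyve1 set, beside 9.05% and 8.35% of all genes.

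The Ly6c2 set held Cxcl9 at 93.7 CPM, 2.10 times the level of other macrophages and higher in 4 of 5 runs. The size of this ratio rested on few cells: 5 of the 466 held 57.7% of the 430 Cxcl9 UMIs, and 1 cell held 117. Run values of Cxcl9 went from 10.8 to 156 CPM. Cxcl3 was at 96.1 beside 56.8, higher in 5 of 5. The set held less Cxcl10, at 107 CPM beside 229, and less Cxcl14, at 2.40 beside 22.1, each lower in 5 of 5 runs. Pooled Cxcl9 and Cxcl10 therefore moved in opposite directions in this set, though Cxcl9 not in every run. Of 7 ligands, 1 was called higher and 2 lower, beside 1.41% and 2.35% of genes. The Trem2 set held Cxcl14 at 56.6 CPM, 2.56 times the level of other macrophages (2.34 to 2.80) and higher in 6 of 6 runs, the 1 called difference of 7 ligands, beside 1.54% of genes called higher and 0.789% lower. Cxcl2 was at 2155 CPM beside 3140 in that set, under the call but lower in 6 of 6 runs.

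Among CD4/CD8-selected cells the Trem2 set comprised 553 macrophages, 444 of them in 1 run. Its median depth was 24093 UMIs, beside 8087.5 in the 276 other macrophages, and the part of depth was not tested. The set held more Cxcl1 (742 CPM beside 297 in the other macrophages) and Cxcl14 (68.7 beside 26.4), and less Cxcl9 (4.05 beside 49.8), Cxcl10 (57.8 beside 138) and Cxcl16 (446 beside 952). Of these, Cxcl16 was lower in 5 of 5 runs and Cxcl9 in 4 of 5, while Cxcl10 was lower in 3 of 5 and Cxcl1 and Cxcl14 were higher in 3 of 5. Of the 5 called ligands, Cxcl16 thus kept its direction in every run and the 4 others did not. In all, 2 of 7 ligands were called higher and 3 lower, beside 7.34% and 6.78% of genes.

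Ligands differed in how many macrophages carried them. After thinning to 2000 UMIs, 67.4% of 6103 macrophages had a Cxcl16 UMI and 60.0% a Cxcl2 UMI, and Cxcl1 was found in 20.1%, Cxcl10 in 12.7%, Cxcl14 in 4.75%, Cxcl3 in 4.60% and Cxcl9 in 3.06%. A further 861 macrophages were too shallow to be thinned, and without thinning the shares went from 86.7% for Cxcl16 and 67.3% for Cxcl2 to 5.43% for Cxcl9. Among the 60 thinned T cells of the same matrix, taken as the background type, 13.3% had a Cxcl2 UMI and 3.33% a Cxcl1 UMI, and none had a UMI of Cxcl3, Cxcl9, Cxcl14 or Cxcl16, which allows a share of up to 5%. The macrophage shares of Cxcl3, Cxcl9 and Cxcl14 lie within that limit. The median depths before thinning were 8271.5 UMIs for macrophages and 4332 for T cells. The 1% of macrophages with the most UMIs of a ligand held 72.0% of all Cxcl9 UMIs, 53.0% of Cxcl3, 43.7% of Cxcl10, 27.8% of Cxcl1, 13.9% of Cxcl2 and 6.27% of Cxcl16, while the deepest 1% of cells held 5.46% of all UMIs. Cxcl16 was thus spread nearly as evenly as RNA content, and Cxcl9 sat in few cells. The largest number in 1 macrophage was 950 UMIs of Cxcl2, 499 of Cxcl10, 489 of Cxcl1 and 117 of Cxcl9.

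**Figure D4:**
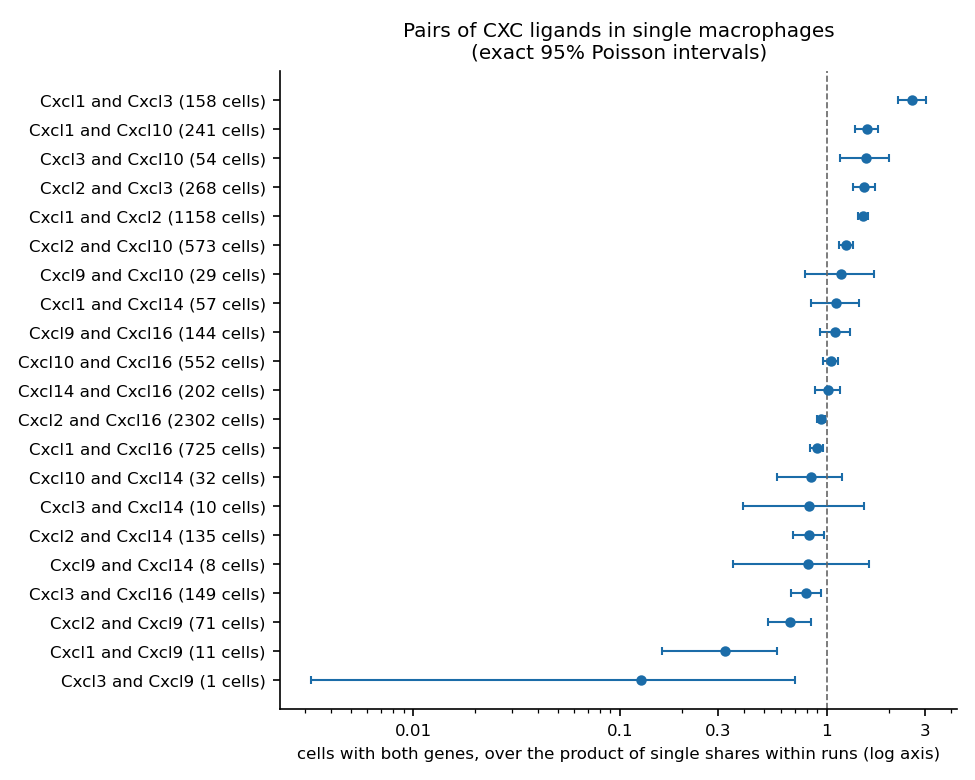
Number of CD11c-selected macrophages with a UMI of both ligands of a pair, divided by the number that the product of their single shares gives within barcode runs, after thinning each cell to 2000 UMIs; points are ratios on a log axis and bars are 95% counting intervals, with a line at 1. Cxcl1 with Cxcl3 is at 2.60 and Cxcl1 with Cxcl9 at 0.322.

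The Cxcr2 ligands were found in the same macrophages more often than their single shares give, and together with Cxcl9 less often. Cxcl1 and Cxcl2 were both seen in 1158 macrophages, 1.58 times the number that their single shares give, and 1.50 times (1.42 to 1.59) when that number was computed within runs. Within runs the ratio was 2.60 (2.21 to 3.04) for Cxcl1 with Cxcl3 and 1.52 for Cxcl2 with Cxcl3. Cxcl1 and Cxcl9 were both seen in 11 cells, a ratio of 0.322 (0.161 to 0.576), Cxcl2 and Cxcl9 in 71 cells, a ratio of 0.664 (0.519 to 0.838), and Cxcl3 and Cxcl9 in 1 cell. Of the cells with Cxcl9, 38.0% thus also had Cxcl2. At 4000 UMIs per cell the ratio with Cxcl9 was nearer 1, at 0.432 (0.264 to 0.667) for Cxcl1 and 0.792 (0.647 to 0.961) for Cxcl2. Cxcl10 went with the Cxcr2 ligands, at 1.56 (1.37 to 1.77) with Cxcl1, and its ratio with Cxcl9 was 1.18 (0.788 to 1.69). With cells thinned to 4000 UMIs these ratios were 1.43 (1.28 to 1.60) with Cxcl1 and 1.63 (1.23 to 2.11) with Cxcl9, so the interval for Cxcl9 included 1 at the lower depth and not at the higher one. In the 859 thinned macrophages of the CD4/CD8-selected matrix the ratio of Cxcl1 with Cxcl2 was 1.30 within runs, and Cxcl1 and Cxcl9 were seen together in 1 cell, too few for a comparison. These ratios cover counting error only, and cells are not replicates.

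Cells rich in 1 ligand were then set beside cells without it, with at least 5 UMIs as the limit, again chosen after the values were seen. The 125 macrophages rich in Cxcl9 held Cxcl10 at 728 CPM, beside 197 in the 6586 macrophages with no Cxcl9 UMI. They held Cxcl16 at 1090 CPM beside 695 and Irf1 at 71.0 beside 35.5, and less Cxcl1, at 118 beside 417, and Cxcl2, at 1079 beside 2971. In the 3 runs with at least 10 such cells, these directions held in 3 of 3 for Cxcl1, Cxcl2, Cxcl16 and Irf1 and in 2 of 3 for Cxcl10. Their depth was close to that of the others, with median UMI counts of 9036 and 8251.5, and 43 of the 125 lay in run 2. The 1099 macrophages rich in Cxcl1 had the opposite direction for Cxcl2 and Cxcl16, but not for Cxcl10. Cxcl2 was at 6860 CPM beside 1516, Cxcl3 at 145 beside 26.2, Cxcl9 at 11.6 beside 51.2 and Cxcl16 at 563 beside 774. Cxcl10 was at 387 CPM beside 153, higher in 6 of 6 runs, and Irf1 at 37.9 beside 35.3, higher in 4 of 6. The median depth of the Cxcl1-rich cells was higher, at 12052 UMIs beside 7351, and its part in these values was not tested. The 589 macrophages rich in Cxcl10 held Cxcl1 at 758 CPM beside 308, higher in 6 of 6 runs. They held Cxcl9 at 58.9 beside 34.4, higher in 4 of 6. Their median depth was 12137 UMIs beside 7654, and its part was not tested either.

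Some receptors lay in the gates that held their ligands and others did not. Cxcr2, the receptor of Cxcl1, Cxcl2 and Cxcl3, was at 295 CPM in neutrophils and at 0.393 or less in macrophages, DC and tumor cells, with no UMI in T cells or fibroblasts of the CD11c-selected matrix, and Cxcr1 did not exceed 2.28 CPM in any gate there. Cxcr3, the receptor of Cxcl9 and Cxcl10, was at 32.5 CPM in CD11c-selected T cells and 101 in CD4/CD8-selected T cells, where CD4 T cells held 184, and at 19.4 in cDC1. Cxcr6, the Cxcl16 receptor, was at 245 CPM in the T cells of the CD11c-selected matrix and 254 in those of the CD4/CD8-selected matrix, with 440 in CD4 T cells. Thus neutrophils carried both Cxcr2 and its ligand Cxcl2, while Cxcl16 and Cxcr6 lay in separate gates.

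Cxcr4, the signaling receptor of Cxcl12, was at 1042 CPM in neutrophils, 289 in T cells, 284 in macrophages and 169 in DC of the CD11c-selected matrix. In the T cells of the CD4/CD8-selected matrix it ran from 96.9 to 242 CPM over runs (median 161). There T cells lay below macrophages in 6 of 6 runs. Ackr3, which scavenges Cxcl12, was at 274 CPM in the fibroblasts of the CD11c-selected matrix and 422 in those of the CD4/CD8-selected matrix, the cells that also held Cxcl12, and at 16.5 in tumor cells of the former. Ackr1 was at 24.9 CPM in fibroblasts. Cxcr5, the receptor of Cxcl13, was at 30.1 CPM in migratory DC and 5.64 in CD4/CD8-selected T cells.

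**Figure D5:**
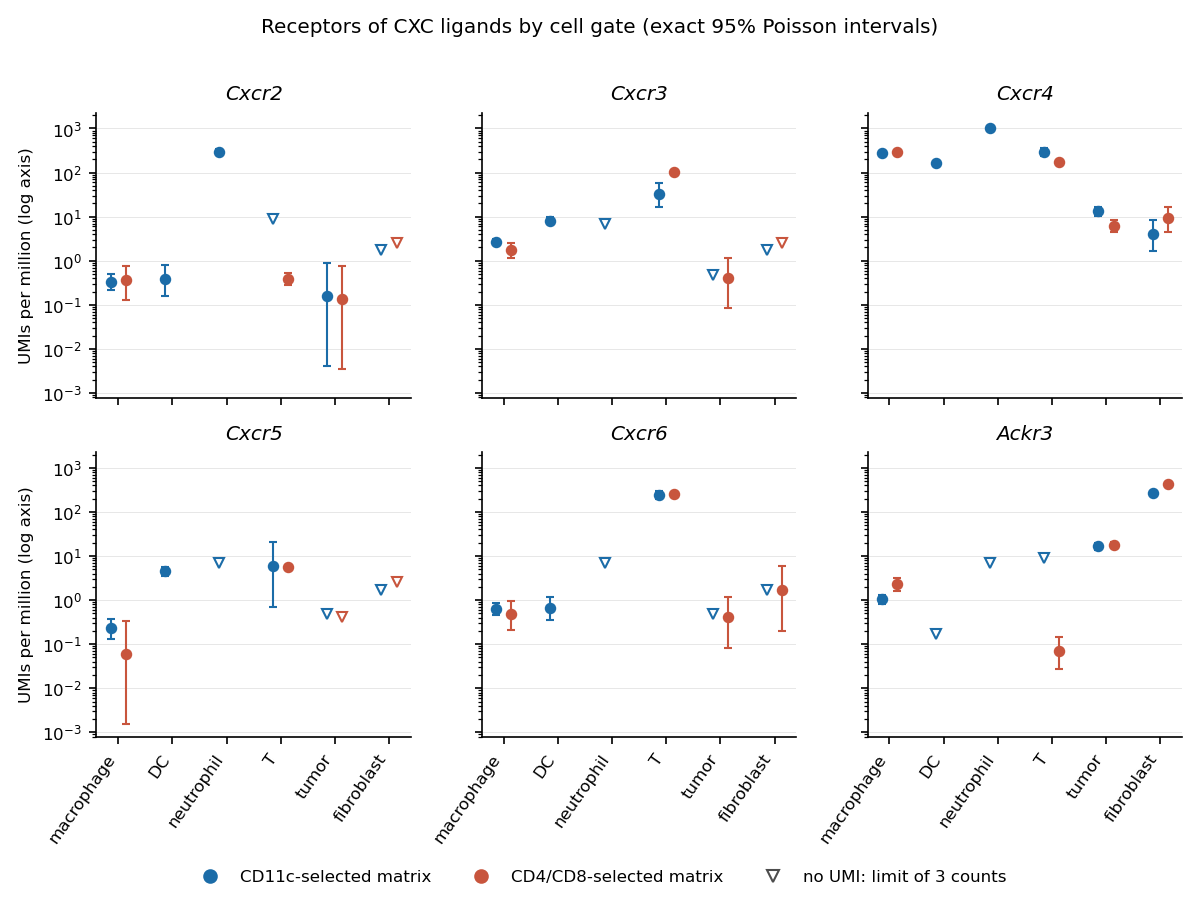
Level of 6 receptors in 6 cell gates, in UMIs per 1000000 UMIs on a log axis with exact 95% Poisson intervals; blue points are the CD11c-selected matrix, red points the CD4/CD8-selected matrix, and open triangles mark gates with no UMI at the limit of 3 counts. Cxcr2 stands at 295 CPM in neutrophils, Cxcr6 at 245 and 254 CPM in T cells, and Ackr3 at 274 and 422 CPM in fibroblasts.

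Of the other CXC ligands, Cxcl5 was at 24.4 CPM in fibroblasts and 23.2 in tumor cells of the CD11c-selected matrix, and Cxcl17, a mucosal chemokine, was at 73.5 in tumor cells there and 70.7 in those of the CD4/CD8-selected matrix. Pf4, the platelet factor gene that resident macrophages also express, was at 462 CPM in macrophages, 2310 in the Lyve1 set and 1473 in the macrophages of the CD4/CD8-selected matrix (593 without run 3). Cxcl13, the B cell attractant, was at 40.6 CPM in fibroblasts, 11.0 in macrophages and 211 in the Lyve1 set, where its runs went from 7.22 to 1667 CPM. The fibroblast value came largely from run 1, at 138 CPM, while the median over runs was 0.896. Fibroblasts held more Cxcl13 than macrophages in 1 of 4 runs and less in 3. Ppbp at 1.38 CPM in macrophages and Cxcl15 at 1.30 in tumor cells were low.

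Genes that process these ligands had their own distribution. Dpp4, a protease that trims and inactivates several CXC ligands, was at 158 CPM in migratory DC, 120 in all DC, 97.5 in fibroblasts and 8.99 in macrophages. Adam10 and Adam17, which shed membrane-bound Cxcl16, were at 102 and 140 CPM in macrophages, and at 47.7 and 52.5 in DC. In the interferon-gamma arm, Ifng was at 115 CPM in CD11c-selected T cells and 153 in CD4/CD8-selected T cells. Its receptor genes Ifngr1 and Ifngr2 were at 914 and 7.18 CPM in the latter, and Ifngr2 was at 139 in macrophages. Irf1 was at 247 CPM in migratory DC, beside 36.4 in macrophages. Cxcl9 was at 19.6 CPM in migratory DC and 37.4 in macrophages. Over 5 runs, Cxcl9 in migratory DC had a median of 0 CPM and a highest value of 61.5, in run 3. A link between Irf1 and Cxcl9 was not tested.

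The genes with the pattern most like each ligand were sought by Pearson's r of log2(CPM + 1) over 12 gates and subsets of the CD11c-selected matrix, among 9378 genes. The points share cells, since subsets lie within gates, and r is a description. Cxcl12 was closest to the fibroblast surface gene Antxr1 (r = 0.991), then Pcolce, which enhances procollagen processing, and Wisp1. Cxcl2 was closest to the cholesterol exporter gene Abca1 (0.983), then Rab20 and Fnip1, Cxcl1 to Rassf8 (0.980) and Cxcl3 to Socs3 (0.980), a cytokine signaling inhibitor gene. Cxcl16 was closest to Sowahc (0.976) and Cxcl14 to Ptgfrn (0.945). Cxcl9 and Cxcl10 had the least close neighbours of the 8, Ifi205 (0.877), an interferon-inducible gene, and Slc12a4 (0.869).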

How the data were processed

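Single cells from CD11c-selected and CD4/CD8-selected tumor samples were profiled on the 10x platform. The submitters' processing notes name Cell Ranger 3.0.2 and the mm10 build, and the authors deposited raw UMI counts per gene and barcode, 1 matrix per selection with the samples of both genotypes pooled. The deposited counts were used as they stand. Barcodes with under 200 detected genes were left out (341 of 11980 and 295 of 23101), leaving 123642015 and 135965765 UMIs. No doublet caller was run, and cells that passed several gates (4.73% and 1.56%) were left out of every gate. Thresholds on the number of markers were set after the distributions of detected markers were seen.

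UMIs were summed per gate and scaled to 1000000, with exact Poisson intervals at 95%, and Clopper-Pearson intervals were used for shares of cells. PCR copies are removed by UMIs, and intervals cover counting error only. Gates under 50 cells, and runs with under 10 cells of a gate, were not described. Gene symbols matched GENCODE M21 for 30431 of 31053 rows. The scripts, in Python 3.11.15 with numpy 2.4.6, scipy 1.17.1, pandas 2.3.3 and matplotlib 3.10.9, were tested on simulated data. With all samples of a matrix pooled, no p-value was computed.

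Genes named in the text are the 9 ligands, other CXC ligands, their receptors, processing enzymes and the interferon-gamma arm, gate markers, and the 3 genes nearest to a ligand in pattern. The ligands and lists were chosen with earlier results of these data known. Cxcl11 was not analysed here. Of the interferon-gamma arm, 1 gene is not reported here. Alternatives tried were 1 marker more or fewer per gate, cells of several gates assigned to the gate with most markers, means over cells, at least 500 genes, cells over 10% mitochondrial UMIs left out, each run left out, and thinning to 4000 UMIs.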

Additional observations from a re-analysis of the deposited data

How the results depend on the processing

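The ligands kept the gate with their highest level under every alternative except 1: with 1 marker fewer per gate in the CD11c-selected matrix, 6 of 8 did, Cxcl3 being then highest in macrophages (60.3 CPM, fibroblasts 40.5) and Cxcl10 in T cells (507 CPM, fibroblasts 233). Under that setting Cxcl1 in fibroblasts was at 1729 CPM in place of 2769, and with 1 marker more Cxcl2 in the CD11c-selected T cells was at 324 CPM in place of 50.2. Over the comparisons of a gate with macrophages, the number of called folds was 28 in the CD11c-selected matrix, 30 with 1 marker more and 28 with cells of several gates assigned, and 16, 17 and 17 in the CD4/CD8-selected matrix. The ratio of Cxcl1 with Cxcl2 in macrophages was 1.40 at 4000 UMIs per cell, in place of 1.58, and the cause was not tested. Of 480 levels recomputed with a run left out, 166 lay outside the counting interval of the full value, and of 480 under the other alternatives 181 did. The 63 T cells, 112 fibroblasts and 160 neutrophils of the CD11c-selected matrix were the gates with the fewest cells. The values within runs and without run 3 given for cells split by a ligand, and for C1qb and Pf4, were added after the data were seen. No paired analysis was possible because the barcodes carry no sample or replicate number.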

Other observations

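A few cells passed an endothelial gate (Pecam1, Cdh5, Kdr, Egfl7, Cldn5 and Emcn) and were too few to describe beside the others. The 21 such cells of the CD4/CD8-selected matrix held Cxcl12 at 205 CPM and Cxcl10 at 426 CPM, and the 21 of the CD11c-selected matrix held Cxcl9 at 140 CPM and Cxcl10 at 163 CPM. In the CD4/CD8-selected matrix, barcodes with under 200 genes held Cxcl2 at 390 CPM, Cxcl1 at 373 CPM, Cxcl16 at 136 CPM and Cxcl10 at 67.8 CPM.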
